A study of Saccharomyces cerevisiae with 15 samples.

Results

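Purine nucleotides, the building blocks behind ATP, GTP and nucleic acids, are made in budding yeast either from scratch or by reuse of bases and nucleosides. Transcript levels of 10 genes of this pathway were followed in 5 strains of Saccharomyces cerevisiae. The genes are IMD2, IMD3, IMD4, GUA1, ADE4, ADE12, ADE13, ADE17, ADO1 and AAH1, taken by symbol from a table of 5980 genes, and 10 of 10 were found and passed the filter on low counts. They were picked as pathway genes with results of these data in view: IMD2 and ADO1 were chosen by their read counts, which differed strongly in evolved strains. Levels of the 10 genes in evolved strains against C0 or BY47419 are therefore a description, given with no test, and the choice set no numeric threshold.

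The study compared strains on the way to an evolved producer of β-carotene, an orange plant pigment, by RNA sequencing of 15 samples, 3 per strain. C7-143 is labelled as the final evolved strain, and C3-06 and C5-63 carry the label of strains in the course of the evolution. C0 is the first β-carotene strain, and BY47419 the strain without the pigment genes. All of them have the genotype his3Δ1, leu2Δ0, met15Δ0, ura3Δ0 in the S288C background and overexpress the genome-editing nuclease spCas9-NG. C7-143, C5-63, C3-06 and C0 also overexpress HMG1, an enzyme of sterol and carotenoid precursor supply, and the carotenoid genes CrtE, CrtYB and Crt I. The sources used here name no promoters, copy numbers or mutations acquired during evolution. Cultures were grown at 30 °C in rich YPD medium with 20 g/L glucose and taken at an optical density of about 3. YPD holds yeast extract and so supplies purine bases. The labels do not say whether the 3 samples of a strain were separate cultures, so the p-values below rest on sample-to-sample spread that may be technical.

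The de novo route builds IMP on a ribose phosphate. ADE4 encodes the amidotransferase of its first committed step, ADE13 the lyase that acts once within the route and again on the way to AMP, and ADE17 the enzyme of its last steps. From IMP the path forks. ADE12 and ADE13 lead to AMP, and the IMP dehydrogenases IMD2, IMD3 and IMD4 followed by the GMP synthetase GUA1 lead to GMP. ADO1 encodes adenosine kinase, which recovers the adenosine left over from methylation reactions, and AAH1 adenine deaminase, which turns adenine into hypoxanthine for reuse. In yeast IMD2 is known to be induced when guanine nucleotides run low, and ADE genes are known to be activated by Bas1 with Pho2 when adenine is scarce.

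The IMP dehydrogenase genes resemble each other, which bears on how their reads can be told apart. In the R64 genome IMD2 (YHR216W) lies on the + strand at chrVIII:554396-555967, 6676 bases from the chromosome end, IMD3 (YLR432W) at chrXII:1002557-1004128 and IMD4 (YML056C), which has 2 coding exons, on the - strand at chrXIII:162194-164176. The coding sequence of IMD2 was 88.9% identical to that of IMD3 and 79.1% to that of IMD4, and IMD3 and IMD4 were 82.1% identical. Of all stretches of 50 bases in IMD2, 8.01% occurred unchanged in IMD3 and 0% in IMD4, and of those in IMD3, 7.03% occurred in IMD4. The longest identical run was 139 bases between IMD3 and IMD4, 94 between IMD2 and IMD3 and 35 between IMD2 and IMD4. A further match to IMD2, 96.3% identical over 1576 bases, lies at chrI:227742-229317 and is not analysed here. The sources used here do not say how reads that match several places were counted, so levels of IMD2, IMD3 and IMD4 carry that uncertainty.

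Upstream sequence of the most changed pair is shown because IMD2 and IMD3 had the largest differences of the 10 genes. The lines below give the bases from 250 to 101 before the start codon, 5′ to 3′ on the coding strand, from the R64 genome. Capitals mark the only run of at least 12 bases that these 2 stretches share. It is 15 bases long, and neither stretch shares such a run with the same stretch of IMD4. The bases nearer the start codon were left out of this search and are not shown, and there the 2 genes share a longer run.
IMD2, chrVIII:554146-554295: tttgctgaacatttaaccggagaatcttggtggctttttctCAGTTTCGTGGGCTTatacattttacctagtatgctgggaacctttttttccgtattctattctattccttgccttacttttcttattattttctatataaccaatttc
IMD3, chrXII:1002307-1002456: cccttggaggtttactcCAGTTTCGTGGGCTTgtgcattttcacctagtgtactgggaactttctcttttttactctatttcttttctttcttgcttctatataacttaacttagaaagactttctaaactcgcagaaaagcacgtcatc

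The letters TGACTC, the core recognised by Bas1 and also contained in the site of Gcn4, were searched on both strands in the 250 bases before each start codon. They occurred in 3 of the 10 genes, in 5 of the 7 other genes of IMP synthesis and in 6.26% of all 5979 windows searched. Of the further lists described below, 6 of 8 genes for glycine and one-carbon units and 4 of 19 salvage and interconversion genes had a match. The count was 0 for 5 PRPP synthetase genes, 2 regulators and 3 termination factors. A match is a description of letters, not evidence of binding. The sites of the 3 genes are given with those of ADE2 and ADE8, which differed in their levels, and the capitals mark the motif, read as GAGTCA where it lies on the opposite strand.
ADE17, chrXIII:509442-509467, - strand: agaaatgaatTGACTCctctcataac
ADE13, chrXII:844056-844081, + strand: tccgcgagcaGAGTCAaacttcaaac
ADE12, chrXIV:234181-234206, + strand: ccttttcattGAGTCAcagattaaca
ADE2, chrXV:566372-566397, - strand: tgctgacaaaTGACTCttgttgcatg
ADE8, chrIV:1289025-1289050, - strand: ttcgaatgagTGACTCgttgctagtg

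Libraries held 16144808 to 21586409 reads on genes, and the lowest count of the 10 genes was 103 reads, for AAH1. Levels are given in CPM, read counts scaled to library size after TMM scaling, a correction for differences in library make-up. They are relative to all other transcripts of the culture, so a lower level per cell and fewer cells with the transcript cannot be told apart. Marker genes of growth state moved with the strains. The 137 cytosolic ribosomal protein genes took 2.23% to 3.08% of reads in C3-06, 3.40% to 3.89% in C5-63 and 4.76% to 5.95% in C7-143, against 0.467% to 0.508% in C0 and 0.372% to 0.467% in BY47419. A list of 16 general stress genes took 1.99% to 3.00%, 1.13% to 1.43% and 0.602% to 0.776% in the evolved strains in the same order, against 5.73% to 6.12% in C0 and 6.92% to 7.17% in BY47419. The part of growth state in the purine results was not tested. Together the 10 genes took 0.155% to 0.207% of reads in C3-06, 0.289% to 0.321% in C5-63 and 0.424% to 0.464% in C7-143, against 0.0519% to 0.0558% in C0 and 0.0395% to 0.0463% in BY47419. Ranges of the 3 evolved strains and of the other 2 did not overlap for any of these sums.

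In the GMP branch, levels were several-fold higher in each evolved strain than in C0. IMD2 had 414, 453 and 377 CPM in the 3 libraries of C3-06, 1026, 947 and 724 CPM in C5-63, and 1102, 984 and 1061 CPM in C7-143, against 36.3, 35.6 and 32.6 CPM in C0 and 25.7, 30.8 and 29.4 CPM in BY47419. The lowest evolved library thus stood above the highest of the other strains, while C7-143 and C5-63 overlapped. Relative to C0, IMD2 stood at log2 3.57 ± 0.13 for C3-06 (SE here and below), 4.69 ± 0.13 for C5-63 and 4.91 ± 0.13 for C7-143.

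IMD3 had 141, 223 and 184 CPM in C3-06, 354, 341 and 361 CPM in C5-63 and 706, 764 and 661 CPM in C7-143, against 33.1, 27.7 and 27.5 CPM in C0 and 20.9, 26.9 and 20.7 CPM in BY47419. Its libraries fell into separate ranges in all 5 strains, with C7-143 highest and BY47419 lowest. IMD4 had 233, 319 and 265 CPM in C3-06, 447, 423 and 437 CPM in C5-63 and 588, 661 and 532 CPM in C7-143, against 90.3, 84.4 and 85.2 CPM in C0 and 61.3, 68.8 and 60.0 CPM in BY47419. The strains stood in the same order as for IMD3 and again did not overlap, but the distance to C0 was smaller: log2 2.78 ± 0.11 for IMD4 and 4.60 ± 0.16 for IMD3 in C7-143.

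GUA1, the next enzyme towards GMP, had 97.0, 138 and 134 CPM in C3-06, 107, 96.4 and 139 CPM in C5-63 and 298, 335 and 247 CPM in C7-143, against 33.6, 26.9 and 29.3 CPM in C0 and 23.6, 26.4 and 26.4 CPM in BY47419. C3-06 and C5-63 overlapped, and C7-143 lay above both. Against C0, GUA1 stood at log2 2.04 ± 0.16 for C3-06, 1.93 ± 0.16 for C5-63 and 3.29 ± 0.17 for C7-143. The level of IMD2 in CPM was 2.81 to 4.26 times that of GUA1 in C3-06, 5.20 to 9.82 times in C5-63 and 2.94 to 4.30 times in C7-143, against 1.08 to 1.32 times in C0 and 1.09 to 1.17 times in BY47419. These genes have nearly equal coding lengths, 1572 bases for IMD2 and 1578 for GUA1.

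**Figure D1:**
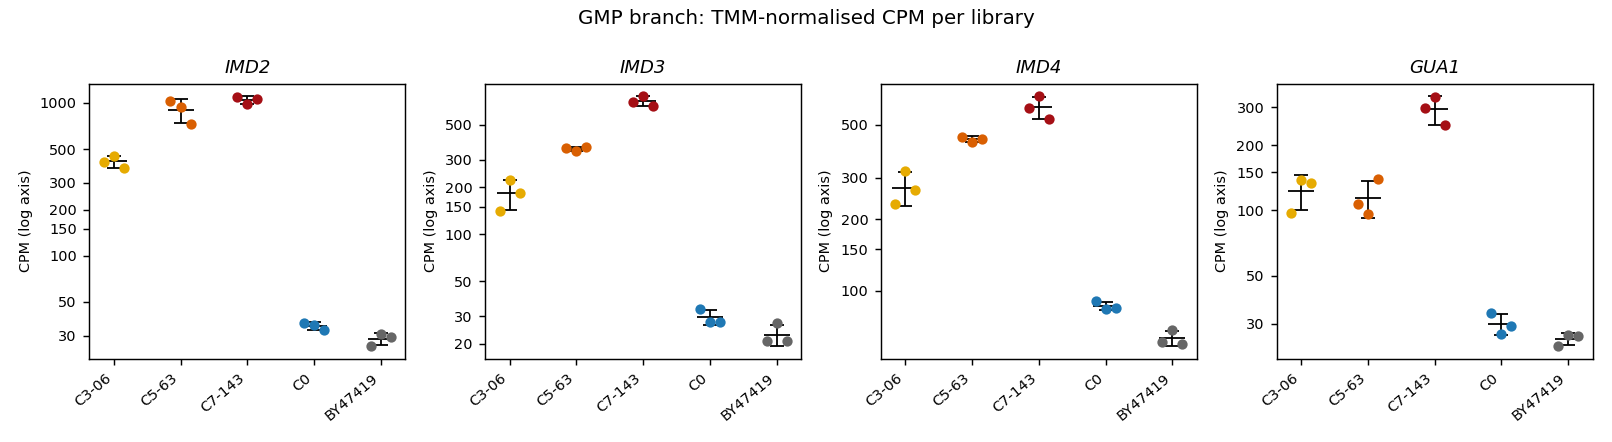
TMM-normalised CPM (log axis) of IMD2, IMD3, IMD4 and GUA1 in each library, by strain. Points are libraries, horizontal marks the mean and bars the SD (n = 3); IMD2 averaged 415, 899 and 1049 CPM in C3-06, C5-63 and C7-143, against 34.8 CPM in C0 and 28.6 CPM in BY47419.

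The division of IMP dehydrogenase reads among the 3 genes differed between evolved strains and C0. IMD2 held 47.9% ± 3.99 of their summed reads in C3-06 (SD, n = 3 here and in the next sentences), 53.0% ± 4.74 in C5-63 and 44.6% ± 3.32 in C7-143, against 23.1% ± 0.876 in C0 and 25.0% ± 1.53 in BY47419. IMD4 held 31.2% ± 1.43, 26.0% ± 2.39 and 25.2% ± 2.00 in the same evolved strains, against 57.5% ± 1.07 in C0 and 55.2% ± 1.38 in BY47419. IMD3 held 30.2% ± 1.34 in C7-143, 20.9% ± 2.56 in C3-06 and 21.0% ± 2.36 in C5-63, against 19.5% ± 1.09 in C0 and 19.8% ± 1.30 in BY47419. IMD4 thus had the most reads of the 3 genes in every library of C0 and BY47419, and IMD2 in every evolved library. The summed level of the 3 genes was 788 to 995 CPM in C3-06, 1522 to 1826 CPM in C5-63 and 2254 to 2409 CPM in C7-143, against 145 to 160 CPM in C0 and 108 to 126 CPM in BY47419. Because the rule behind the choice of IMD2 used these strains, no test is given.

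**Figure D2:**
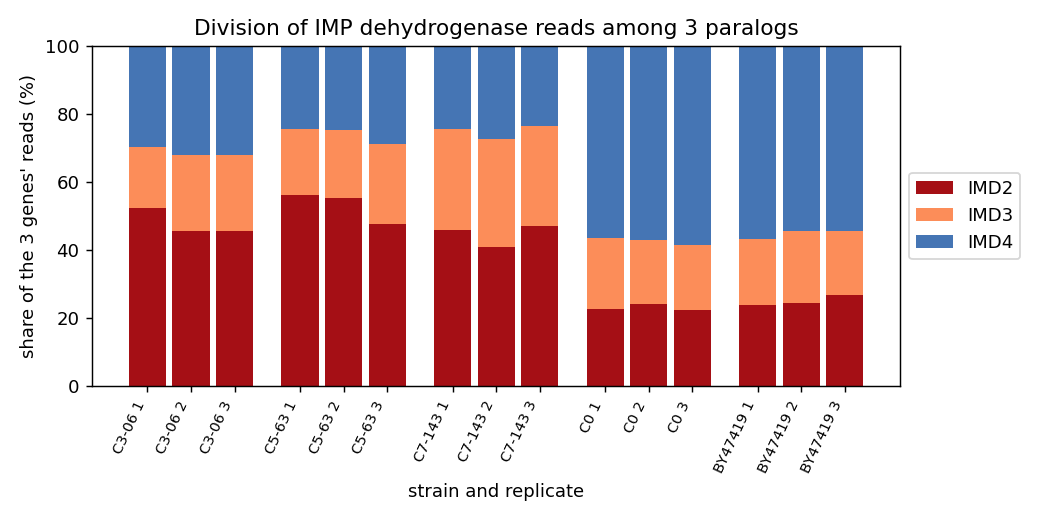
Share of the summed IMD2, IMD3 and IMD4 reads (percent) held by each gene, 1 stacked bar per library from C3-06, C5-63, C7-143, C0 and BY47419. IMD2 took 40.9% to 56.2% in the 9 evolved libraries, against 22.4% to 26.7% in the 6 libraries of C0 and BY47419.

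In IMP synthesis the differences were smaller. ADE4 (YMR300C, chrXIII:865559-867091) had 32.0, 43.9 and 42.2 CPM in C3-06, 63.6, 52.3 and 57.9 CPM in C5-63 and 89.0, 90.8 and 75.8 CPM in C7-143, against 14.9, 21.2 and 18.8 CPM in C0 and 15.9, 16.01 and 18.8 CPM in BY47419. The 3 evolved strains did not overlap with each other or with C0, whereas C0 and BY47419 overlapped. ADE17 (YMR120C, chrXIII:507502-509280) had 38.4, 40.9 and 41.1 CPM in C3-06, 63.7, 53.8 and 57.1 CPM in C5-63 and 115, 102 and 79.3 CPM in C7-143, against 34.8, 32.6 and 39.2 CPM in C0 and 33.6, 34.4 and 34.1 CPM in BY47419. C3-06 and C0 overlapped for ADE17, with a log2 fold change of 0.17 ± 0.11, while C7-143 stood at 1.48 ± 0.11 against C0.

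ADE17 has a paralog of the same function, ADE16, whose coding sequence is 74.7% identical with no stretch of 50 bases in common. ADE16 fell by 0.51 on the log2 scale in C7-143 against C0 (adjusted p = 8.28e-06, edgeR) and by 0.34 in C5-63 against C0 (adjusted p = 0.000539, edgeR), and stood at -0.16 in C3-06 (adjusted p = 0.063, edgeR). With library totals alone in place of TMM the differences were -0.36 in C7-143, -0.03 in C5-63 (adjusted p = 0.685, edgeR) and 0.04 in C3-06. In C3-06 the fall passed with DESeq2 (adjusted p = 0.00721), with RLE scaling (0.0335), without C0 replicate 3 (0.0401) and without C3-06 replicate 1 (0.0266). Its level was 579 to 592 CPM in C7-143, against 784 to 872 CPM in C0. ADE17 held 14.4% ± 2.36 of the reads of the pair in C7-143 (SD, n = 3), 8.15% ± 1.06 in C5-63 and 5.12% ± 0.454 in C3-06, against 4.11% ± 0.594 in C0 and 3.57% ± 0.0576 in BY47419. ADE16 remained the more abundant of the pair in all 15 libraries.

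On the way to AMP, ADE13 and ADE12 differed from each other. ADE13 (YLR359W, chrXII:844282-845730) had 174, 198 and 192 CPM in C3-06, 231, 204 and 223 CPM in C5-63 and 352, 358 and 301 CPM in C7-143, against 69.0, 74.3 and 75.4 CPM in C0 and 64.6, 66.7 and 65.7 CPM in BY47419. Its libraries did not overlap between any of the 5 strains. ADE12 (YNL220W, chrXIV:234413-235714), the adenylosuccinate synthase that commits IMP to AMP, had 120, 127 and 127 CPM in C3-06, 185, 171 and 174 CPM in C5-63 and 267, 249 and 223 CPM in C7-143, against 155, 142 and 139 CPM in C0 and 144, 141 and 143 CPM in BY47419. It was the only one of the 10 genes below C0 in an evolved strain, at log2 -0.22 ± 0.07 in C3-06, and with library totals alone this value was -0.02. In C7-143 it stood 0.76 ± 0.07 above C0, the smallest difference among the 10 genes.

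The salvage genes followed different courses. ADO1 (YJR105W, chrX:623581-624603) had 253, 290 and 280 CPM in C3-06, 281, 281 and 277 CPM in C5-63 and 847, 883 and 828 CPM in C7-143, against 113, 114 and 122 CPM in C0 and 93.4, 103 and 101 CPM in BY47419. C3-06 and C5-63 overlapped, and C7-143 was 3.05 times C5-63 by mean CPM. The log2 fold change of ADO1 against C0 was 1.24 ± 0.07, 1.27 ± 0.07 and 2.87 ± 0.07 in C3-06, C5-63 and C7-143. AAH1 (YNL141W, chrXIV:359596-360639) had 35.1, 28.6 and 28.9 CPM in C3-06, 22.001, 25.5 and 25.3 CPM in C5-63 and 26.4, 32.0 and 27.7 CPM in C7-143, against 6.94, 7.05 and 7.64 CPM in C0 and 7.65, 5.99 and 7.29 CPM in BY47419. It was the least abundant of the 10 genes in C0 and BY47419, and its evolved levels showed no common order with the other genes. AAH1 was highest on average in C3-06, but C3-06 and C7-143 overlapped, and its highest level, 35.1 CPM, came from C3-06 replicate 1.

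**Figure D3:**
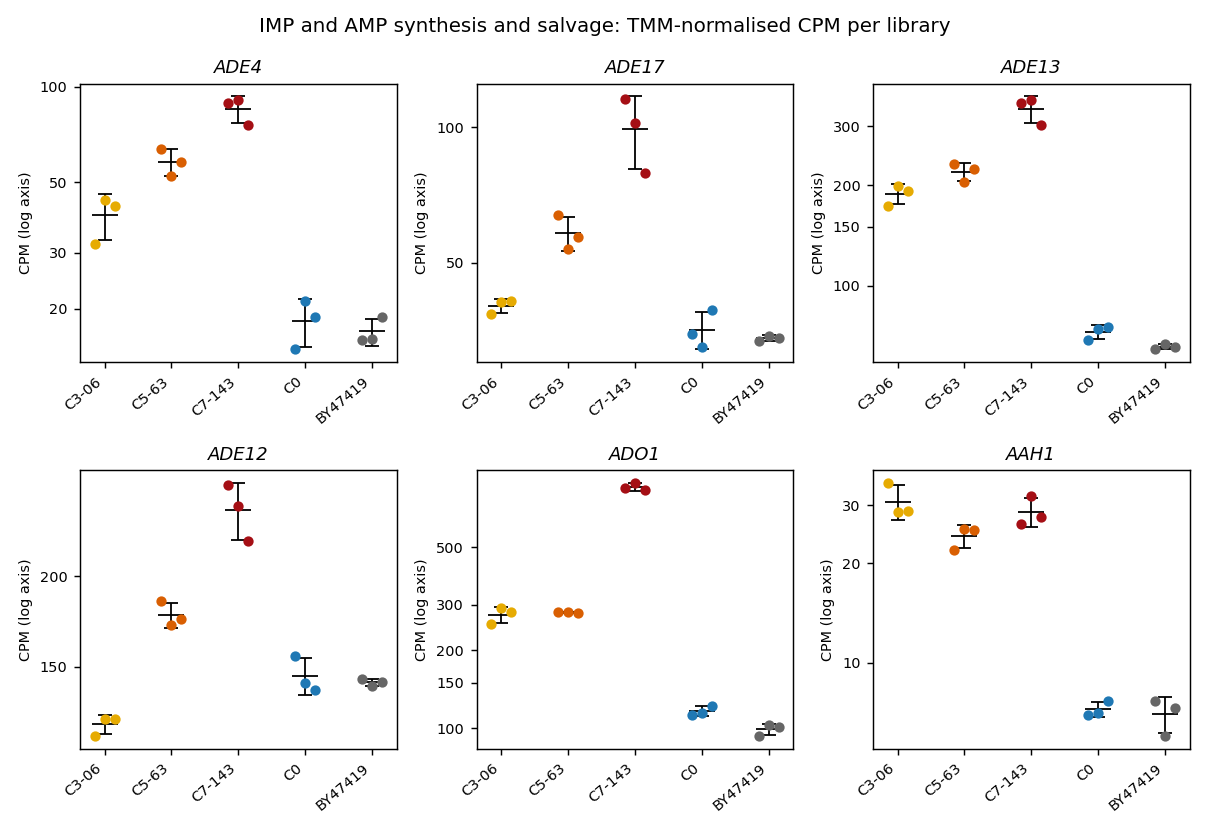
TMM-normalised CPM (log axis) of ADE4, ADE17, ADE13, ADE12, ADO1 and AAH1 in each library, by strain, with the mean and SD (n = 3). ADO1 averaged 274, 280 and 853 CPM in C3-06, C5-63 and C7-143, against 116 CPM in C0, while AAH1 averaged 30.8, 24.3 and 28.7 CPM, against 7.21 CPM in C0.

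Of the 10 genes, 8 were at least 2-fold higher in C3-06 than in C0, 8 in C5-63 and 9 in C7-143. Of all 5814 genes tested, 16.8%, 19.4% and 23.9% were so in the same comparisons. The 10 genes had a median log2 fold change of 1.51 for C3-06, 1.70 for C5-63 and 2.50 for C7-143, against 0.02, -0.0046 and -0.02 over all genes. These 3 comparisons share the C0 libraries and were used in the choice of genes, so nothing further is read from the counts. C3-06 replicate 1 had the lowest ribosomal protein share and the highest stress share of its strain and the lowest level of 8 of the 10 genes. Without it, IMD2 stood at 3.58, IMD3 at 2.79 and GUA1 at 2.19 in C3-06 against C0, where the full fit gave 3.57, 2.64 and 2.04. Calls in C5-63 against C3-06 that ended without this library are given below. In C7-143, replicate 3 had the lowest level of 8 of the 10 genes and likewise the lowest ribosomal protein share and the highest stress share. The part of this in the spread was not tested.

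**Figure D4:**
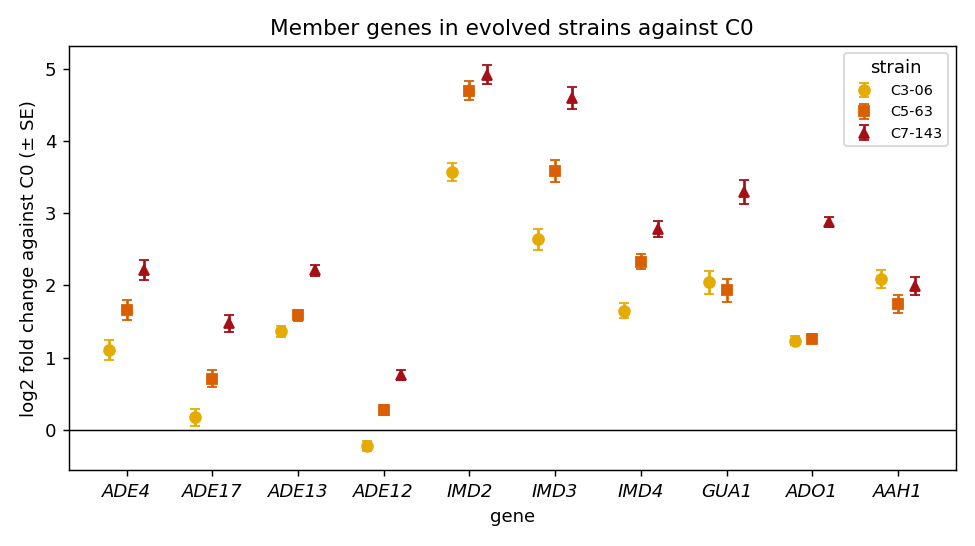
Log2 fold change against C0 (points, bars are SE) of the 10 genes in C3-06, C5-63 and C7-143, ordered by place in the pathway. IMD2 and IMD3 reach 4.91 and 4.60 in C7-143, and ADE12 in C3-06 is the only point below 0.

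Per kilobase of coding length, which allows levels of different genes to be compared, the order of the 10 genes changed between strains. In C7-143 ADO1 was highest at 834 ± 27.4 CPM per kilobase (SD, n = 3), followed by IMD2 at 667 ± 38.0, IMD3 at 452 ± 32.8 and IMD4 at 377 ± 41.1, and no 2 neighbours among these overlapped. In C5-63 IMD2 led at 572 ± 99.4, and IMD4 at 276 ± 7.64 and ADO1 at 274 ± 2.02 overlapped. In C3-06 ADO1 at 268 ± 19.1 and IMD2 at 264 ± 24.2 overlapped. In C0 the leading genes were ADO1 at 114 ± 5.17 and ADE12 at 112 ± 6.53, which overlapped, and IMD2 stood at 22.2 ± 1.24, overlapping with ADE17 at 20.0 ± 1.91. In BY47419 ADE12 led at 110 ± 1.28 and ADO1 followed at 96.8 ± 4.94. AAH1 was lowest in C7-143, C5-63, C0 and BY47419, and ADE17 at 22.5 ± 0.839 had the lowest mean in C3-06, where it overlapped with ADE4 at 25.7 ± 4.22.

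C0 against BY47419 concerns the state before evolution. It was tested for the 8 genes other than IMD2 and ADO1, which were chosen on counts that include these strains. All 10 genes were picked with these data known, so the tests are no independent support. Of the 8, 1 passed, IMD4, higher in C0 at log2 0.45 ± 0.10 (adjusted p = 0.00548, edgeR quasi-likelihood test with Benjamini-Hochberg adjustment). Of all genes tested, 30.3% passed, 12.2% as higher and 18.0% as lower. Libraries of C0 and BY47419 did not overlap for 4 of the 8 genes, all higher in C0, against 16.3% of all genes higher and 24.6% lower without overlap. IMD3 stood at 0.36 ± 0.15 (adjusted p = 0.0797, edgeR) and GUA1 at 0.23 ± 0.17 (0.318), and ADE4, ADE17, ADE13, ADE12 and AAH1 at 0.03 to 0.15. None of the 8 was called lower by edgeR or by DESeq2, with 0 lower at an unadjusted p below 0.05. IMD3 passed without BY47419 replicate 2 (adjusted p = 0.023, edgeR), a library that stood apart from the others of its strain, and 3 of the 8 passed as higher with library totals alone, which moved the median gene to 0.13. The share of all genes called in that setting is not given, so nothing is read from this count. IMD2 and ADO1, given with no test, stood at 0.28 ± 0.12 and 0.23 ± 0.07.

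Steps between evolved strains were tested for the 8 genes other than IMD2 and ADO1. The 8 were also picked with these data known, so the tests of both steps are no independent support. In C5-63 against C3-06, 6 of the 8 were higher, 1 was lower and 1 did not pass, while 19.8% of all genes were higher and 21.0% lower. IMD3 rose by 0.95 ± 0.13 (adjusted p = 8.7e-05, edgeR), IMD4 by 0.68 ± 0.10 (adjusted p = 0.00013), ADE4 by 0.56 ± 0.13 (0.0033), ADE17 by 0.54 ± 0.11 (0.00152) and ADE12 by 0.50 ± 0.07 (6.79e-05). ADE13 was at 0.22 ± 0.08 (adjusted p = 0.0275) and lost its call without C3-06 replicate 1 (0.122), C5-63 replicate 1 (0.115) or C5-63 replicate 3 (0.0641). AAH1 was at -0.34 ± 0.11 (adjusted p = 0.0193), a call that ended without C3-06 replicate 1 (0.108), without C5-63 replicate 1 (0.0974) and with library totals alone (0.0932). GUA1, at -0.11 ± 0.15, did not pass (0.585). IMD2, given with no test, had 899 ± 156 CPM in C5-63, against 415 ± 38.1 CPM in C3-06 (SD, n = 3 each).

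In C7-143 against C5-63, 7 of the 8 genes were higher and 0 lower by edgeR and by DESeq2, and at an unadjusted p below 0.05 all 8 were higher and 0 lower. Over all genes 25.0% were higher and 23.9% lower. GUA1 rose most, by 1.36 ± 0.15 (adjusted p = 5.17e-06, edgeR), to 293 ± 44.2 CPM in C7-143, against 114 ± 22.3 CPM in C5-63 (SD, n = 3 each). IMD3 rose by 1.01 ± 0.13 (adjusted p = 2.31e-05), ADE17 by 0.77 ± 0.11 (4.8e-05), ADE13 by 0.62 ± 0.08 (1.09e-05), ADE4 by 0.56 ± 0.13 (0.00216), ADE12 by 0.48 ± 0.07 (4.51e-05) and IMD4 by 0.45 ± 0.10 (0.00192). With library totals alone IMD4 stood at 0.28 and did not pass (0.0689). AAH1 was at 0.24 ± 0.11 (adjusted p = 0.0788). ADO1 and IMD2, given with no test, stood at 1.61 ± 0.07 and 0.22 ± 0.11, so the gene with the largest difference in this step was not the one with the largest difference in C5-63 against C3-06.

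The rest of the pathway was followed through 41 further genes in 5 lists drawn up by function, with 3 transcription termination factors as 1 more list, 44 genes in all. Earlier results of these data were known when the lists were drawn up, so their tests are no independent support. ADE2, ADE8, BAS1 and NAB3 were named after their values were seen. Against C0, 26 of the 44 were higher and 12 lower in C3-06, 27 and 14 in C5-63, and 28 and 12 in C7-143. The same calls took 41.1% (higher) and 39.4% (lower) of the whole table for C3-06, 41.4% and 41.8% for C5-63, and 42.7% and 43.3% for C7-143. Leaving out the termination factors, the split of higher and lower was 24 and 11 of 41 for C3-06, 26 and 12 for C5-63, and 27 and 11 for C7-143. The median log2 fold change of the 44 genes was 0.39, 0.50 and 0.61 in the 3 strains in that order. With library totals alone, which moved the median of all genes to 0.22, 0.30 and 0.12 in C3-06, C5-63 and C7-143 against C0, the lower genes were 4, 6 and 7. The share of all genes called lower in that setting is not given, so nothing is read from these counts.

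Of the 7 other genes of IMP synthesis, 5 were higher and 2 lower in C7-143 than in C0, with a median log2 fold change of 1.40. Of all genes, 42.7% were higher and 43.3% lower in this comparison. ADE6 rose by 1.74 ± 0.09 (adjusted p = 1.01e-11, edgeR) and ADE5,7 by 1.69 ± 0.08 (adjusted p = 3.65e-12). ADE2, of the carboxylation step, rose by 1.47 ± 0.08 (adjusted p = 6.18e-11), whereas ADE8 was at -0.26 ± 0.09 (adjusted p = 0.00989), a call that ended without C0 replicate 1 (0.0576) and with library totals alone (-0.12, 0.142). Each of ADE2 and ADE8 has 2 TGACTC matches in its window, of which the one farther from the start codon is printed above. In C3-06 4 of the 7 were higher, 1 was lower and 2 did not pass, while 41.1% of all genes were higher and 39.4% lower.

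In salvage and interconversion 12 of 19 genes were higher and 5 lower in each of the 3 evolved strains against C0. Of all genes, 41.1% to 42.7% were higher and 39.4% to 43.3% lower in these comparisons. HAM1, a pyrophosphatase that clears non-canonical purine nucleotides, rose by 3.18 ± 0.14 in C7-143 (adjusted p = 4.01e-12, edgeR), to 80.2 to 97.7 CPM, against 9.30 to 10.996 CPM in C0. SAH1, the hydrolase that releases the adenosine used by ADO1, rose by 3.15 ± 0.15 (adjusted p = 1.09e-11), and its libraries held 732 to 822 CPM in C7-143, 351 to 392 in C5-63 and 167 to 274 in C3-06, against 75.5 to 95.9 in C0. SAH1 was also higher in C7-143 than in C5-63, by 1.05 ± 0.14 (adjusted p = 3.11e-05, edgeR). The adenylate kinase ADK1 rose by 2.87 ± 0.09 in C7-143 (adjusted p = 1.11e-13), the uridine nucleosidase URH1 by 2.13 ± 0.11 in C5-63 (adjusted p = 5.38e-11) and the adenine phosphoribosyltransferase APT1 by 2.04 ± 0.14 in C3-06 (adjusted p = 9.71e-10), each against C0. These genes were higher in every evolved strain and highest in C7-143, where URH1 stood at 2.34 ± 0.12 and APT1 at 2.32 ± 0.14. URH1, named for a pyrimidine nucleoside, is among the 12 higher genes.

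Among the called genes of the lists, AMD1 and GUD1 had the lowest values in each evolved strain against C0. AMD1, which turns AMP back into IMP, was at -1.91 ± 0.13 in C7-143, -1.63 ± 0.13 in C5-63 and -0.87 ± 0.12 in C3-06 against C0 (adjusted p = 4.48e-10, 3.97e-09 and 6.97e-06, edgeR). GUD1, the guanine deaminase, was at -1.89 ± 0.09, -1.48 ± 0.09 and -1.30 ± 0.09 in the same order (adjusted p = 6.92e-12, 1.6e-10 and 1.12e-09). AMD1 had 109 to 119 CPM in C7-143, against 373 to 498 CPM in C0, and GUD1 37.3 to 43.2 CPM, against 135 to 165 CPM. The nucleoside diphosphate kinase YNK1 was at -0.94 ± 0.09 in C7-143 (adjusted p = 3.67e-08). The PRPP synthetase subunit PRS2 was at -0.93 ± 0.06 in C7-143, -0.88 ± 0.06 in C5-63 and -0.64 ± 0.06 in C3-06 (adjusted p = 3.14e-10, 8.36e-10 and 5.4e-08).

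In C3-06, C5-63 and C7-143 against C0, 41.1%, 41.4% and 42.7% of all genes were higher and 39.4%, 41.8% and 43.3% lower. Among the 5 PRPP synthetase genes 3 were higher in each evolved strain, with 2 lower in C3-06 and C5-63 and 1 in C7-143. Of 8 genes for glycine and one-carbon units, which IMP synthesis consumes, 5 were higher in C3-06, 6 in C5-63 and 7 in C7-143, and 1 was lower in each. Of the regulators, PHO2 was at -0.54, -0.24 and -0.27 in C3-06, C5-63 and C7-143 against C0 (adjusted p = 1.82e-05, 0.0135 and 0.00657, edgeR) and BAS1 at -0.27, -0.54 and -0.26 (adjusted p = 0.0259, 0.000181 and 0.0286). Libraries overlapped with C0 for PHO2 in C7-143 and for BAS1 in C3-06 and C7-143. With library totals alone PHO2 stood at 0.06 in C5-63 and -0.13 in C7-143 (adjusted p = 0.558 and 0.205), and BAS1 at -0.07, -0.23 and -0.12 in the 3 strains (0.661, 0.129 and 0.409). PHO2 in C5-63 missed the threshold without C0 replicate 1 (adjusted p = 0.0553) or replicate 3 (0.0554). BAS1 missed it in C3-06 without C0 replicate 1 (0.12), C0 replicate 3 (0.0929) or C3-06 replicate 1 (0.11), and in C7-143 without C0 replicate 1 (0.129), C0 replicate 3 (0.0995), C7-143 replicate 1 (0.0893) or C7-143 replicate 2 (0.052). In C0 against BY47419 BAS1 was at 0.40 (adjusted p = 0.0126, edgeR), which missed the threshold without BY47419 replicate 1 (0.0614) or C0 replicate 3 (0.0503). Of the factors that end short transcripts in yeast, NRD1 rose by 1.51, 0.90 and 1.60 in C3-06, C5-63 and C7-143 against C0 (adjusted p = 6.08e-07, 0.000119 and 2.12e-07, edgeR), and NAB3 was at -0.26, -0.30 and -0.29 (adjusted p = 0.000287, 5.39e-05 and 7.13e-05). With library totals alone NAB3 stood at -0.05 in C3-06 (adjusted p = 0.438), 0.0059 in C5-63 (0.932) and -0.15 in C7-143 (0.034). SEN1 was at 0.25, -0.39 and -0.12 in the same order (adjusted p = 0.00712, 0.000179 and 0.14), and its call in C5-63 ended with library totals alone (0.451).

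**Figure D5:**
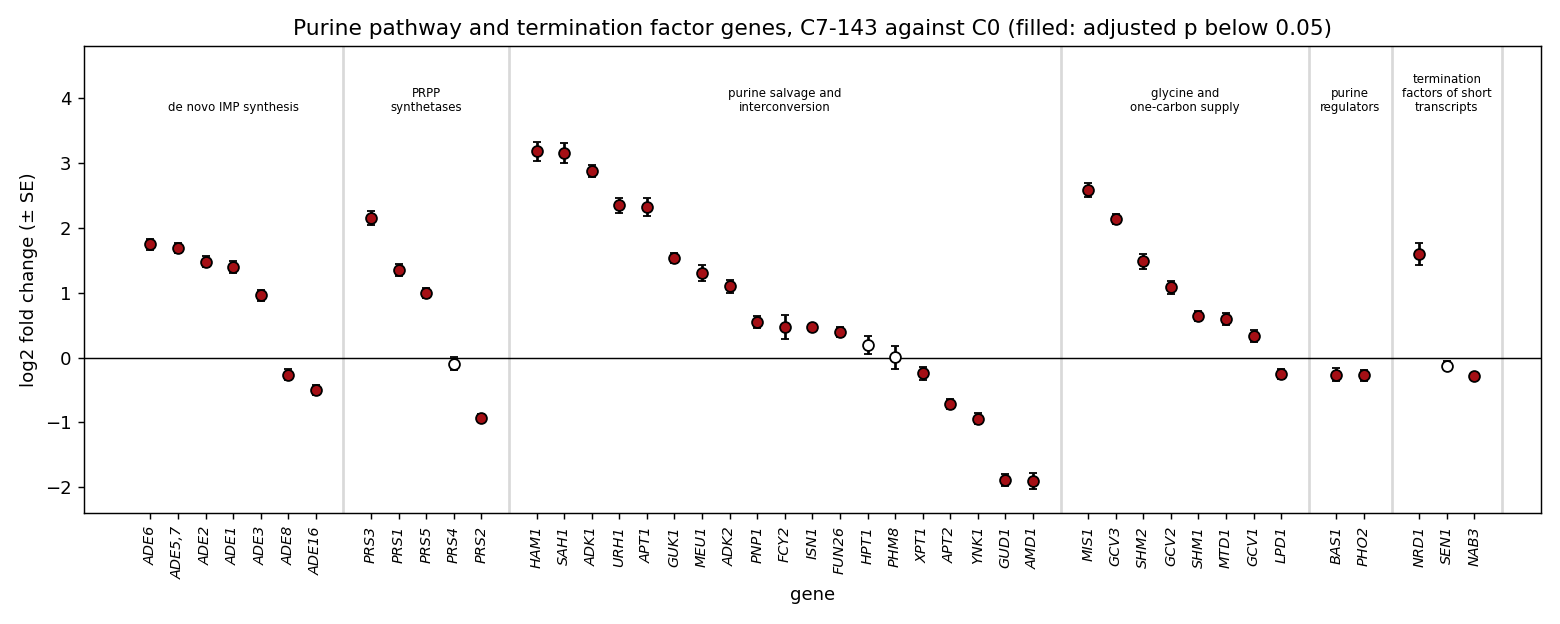
Log2 fold change in C7-143 against C0 (bars are SE) of 41 other purine pathway genes and 3 termination factors in 6 lists, with filled points for an adjusted p below 0.05 (edgeR). HAM1 and SAH1 stand highest at 3.18 and 3.15, and AMD1 and GUD1 lowest at -1.91 and -1.89.

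In C0 against BY47419 8 of the 44 genes were higher and 6 lower, against 12.2% and 18.0% of all genes, and with library totals alone 16 were higher and 2 lower. Shares of all genes called with library totals alone are not given, here or for the steps below, so nothing is read from those counts. GCV2, a subunit of the glycine decarboxylase, was at 0.53 ± 0.11 (adjusted p = 0.00225, edgeR), NRD1 at 0.51 ± 0.17 (0.0354) and HAM1 at 0.47 ± 0.17 (0.0447), and PHO2 at -0.47 ± 0.08 (0.00114), SHM1 at -0.34 ± 0.07 (0.00394) and LPD1 at -0.34 ± 0.08 (0.00458). NRD1 missed the threshold without any 1 of 5 of the 6 libraries (adjusted p 0.0551 to 0.107) and HAM1 likewise (0.0516 to 0.201), and SHM1 missed it with library totals alone (0.0823). The count of higher genes was 4 without BY47419 replicate 1 or C0 replicate 2 and 5 without BY47419 replicate 3 or C0 replicate 3, and the lower count was 3 without BY47419 replicate 1 or 3. With the replicate number as a block the purine permease gene FCY2 passed as lower (-0.45, adjusted p = 0.0414) and YNK1 did not (-0.25, 0.0535). In the steps, 16 of the 44 genes were higher and 9 lower in C5-63 against C3-06, where 19.8% and 21.0% of all genes were. The largest called values were those of the uridine nucleosidase URH1 at 1.03 ± 0.11 (adjusted p = 7.21e-06, edgeR) and AMD1 at -0.76 ± 0.12 (0.000259). In C7-143 against C5-63, where 25.0% of all genes were higher and 23.9% lower, 22 were higher and 3 lower (12 and 10 with library totals alone, which moved the median gene to -0.18), led by SAH1 and by PHM8, a nucleotidase, at -0.56 ± 0.17 (0.0141), which missed the threshold without C5-63 replicate 2 (0.0828) or C7-143 replicate 2 (0.0699).

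Among 4865 genes with a standard symbol and at least 10 CPM on average, those whose pattern was most like a given one were taken by Pearson correlation of log2 CPM over the 15 libraries. The libraries fall into 2 sets, the 9 evolved ones and the other 6. A difference between these sets alone can give a high r, and its part in the values was not tested. The genes most like IMD2 were TDH2, ERV46 and RPS1A (r = 0.997 for each), and IMD4 was the closest of the 10 genes (r = 0.988), at rank 182. Those most like ADO1 were SUB2 (r = 0.997), CDC3 (r = 0.996) and SSH1 (r = 0.995), and GUA1 was the closest of the 10 genes (r = 0.974), at rank 78.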

How the data were processed

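The table that the authors deposited pairs, for every gene and library, a raw count with an FPKM value. HISAT2 is named per the submitters' processing notes. The sources used here name no read counter, strand setting or build, so reads of overlapping or antisense genes cannot be told apart. The deposited counts were used unchanged. The deposited FPKM values served only as a check: they follow from count, length and 1 total per sample, 0.0375% to 0.0541% above the column sum. Of 5980 identifiers, 5977 are in the R64 annotation and 5972 have the same start and end, among them all 10 genes described. Lengths are coding lengths (99.2% are multiples of 3).

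Tests used edgeR 4.0.16 (R 4.3.3). After filterByExpr with a minimum count of 10, 5814 genes entered TMM scaling and 1 robust quasi-likelihood fit over the 15 libraries, grouped by strain, for 6 two-sided comparisons, with Benjamini-Hochberg adjustment over all genes tested and calls at an adjusted p below 0.05. SE is the log2 fold change divided by the square root of F. The members and lists were chosen with earlier results of these data known. Named pathway genes are the 3 largest called changes per direction and comparison with at least 10 CPM in the higher strain, and ADE16; ADE2, ADE8, BAS1 and NAB3 were chosen after their values were seen. RPP1, of RNase P, was kept out of the ribosomal protein list. The test was checked on simulated counts for C5-63 against C0 alone, with 67, 67 and 66 genes changed 1.5-, 2- and 4-fold. It recovered 97.0%, 100% and 100% of them, with 6 false calls. Far more genes were called in the data, a case that this check does not cover. The fold changes, calls and counts of calls were recomputed without the filter, with RLE scaling or library totals in place of TMM, with DESeq2 1.42.0, with a replicate block, on the compared strains alone and without each library; for ADE2, ADE8, BAS1, NAB3, the 41 genes and the 8 genes in C0 against BY47419 this was added after seeing the data. Shares of paralog reads and the IMD2 to GUA1 ratio were not recomputed. A test of IMD2 and ADO1 in C0 against BY47419 was planned and is not reported.

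Replicate numbers were taken to pair libraries where every same-numbered pair of deviations from the strain means correlated above 0.1. That held in C0 against BY47419 alone (0.116 to 0.321), where differently numbered pairs reached up to 0.132. The main fit did not use this pairing, and results with the replicate block are given at the end. Counts of libraries of 1 strain differed by far more than sampling noise (chi-square over degrees of freedom 11.6 to 111), so all were kept as separate samples.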

Additional observations from a re-analysis of the deposited data

How the results depend on the processing

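Library totals alone in place of TMM gave 4, 6 and 7 lower genes among the 44 other pathway genes in C3-06, C5-63 and C7-143 against C0. They gave 16 higher and 2 lower in C0 against BY47419, and 12 higher and 10 lower in C7-143 against C5-63. Of the 8 genes without IMD2 and ADO1, 3 were higher in C0 than in BY47419, and 0 lower in C5-63 against C3-06. Shares of all genes called in this setting are not given, so nothing is read from these counts. This setting turned LPD1 in C3-06 to 0.032 and PHO2, ADE8 and NAB3 in C5-63 to 0.062, 0.068 and 0.0059 (log2, against C0). It turned NAB3 in C7-143 against C5-63 to -0.156, and the cause of these changes was not tested. With the compared strains alone, 1122 genes were called in C0 against BY47419 (1761 in the full model) and 3 of the 44 lower, and 5 of the 44 were lower in C7-143 against C5-63. ADO1 in C5-63 against C3-06 ranged from -0.028 without C3-06 replicate 1 to 0.071 without C3-06 replicate 2.

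Leaving out each library in turn gave 945 to 2223 called genes in C0 against BY47419. Of the 44 genes, 4 to 10 were higher and 3 to 8 lower, and 1 to 2 of the 8 were higher. In C5-63 against C3-06, 0 to 1 of the 8 genes were lower. With the replicate block, 1782 genes were called in C0 against BY47419 and 1 of the 8 was higher. Elsewhere the numbers do not pair the libraries, and the block gave 4693, 4817 and 5004 calls in C3-06, C5-63 and C7-143 against C0, 2414 in C5-63 against C3-06 and 2854 in C7-143 against C5-63, within 1.5 times of the full model. At the lowest levels, as for AAH1 in C0 with 103 to 134 reads, counting error also limits the precision.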
